A study of Mus musculus with 12 samples.

Results

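Mitochondrially encoded genes are the 37 genes of the small circular DNA inside mitochondria. They were taken from the count table by their symbols, which all start with mt-, and made up 37 of its 55291 symbols. Of these, 13 encode proteins of the respiratory chain, 2 encode the RNAs of the mitochondrial ribosome and 22 encode transfer RNAs. RNA was sequenced in bulk from CD8+ T cells of spleen and lymph nodes of wild-type (WT) male mice, with 3 libraries in each of 4 groups. The rat tail collagen group spent its last 24 h in a RatCol gel at 2 mg/mL, and the bovine collagen group spent them in a Nutragen gel at 2 mg/mL. The media group stayed in liquid media for the same 24 h. All 3 of these groups had first been activated through CD3 (antibody on the plate) and CD28 (in solution) for 2 days, then expanded for 1 day with interleukin 2, and were lysed on day 4. The naive group was lysed on day 0 without activation or culture. The labels give no ages and do not say whether equal replicate numbers mark the same mouse, so p-values measure the spread between these libraries.

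As background, mitochondrial DNA is transcribed as long RNAs that cover nearly a whole strand, and enzymes cut out the transfer RNAs that lie between most of the other genes. The proteins it encodes are core subunits of complexes I, III, IV and V of oxidative phosphorylation, which also contain many subunits from nuclear genes. Activated CD8+ T cells enlarge their mitochondria, and the nucleus supplies every protein factor that copies, transcribes and translates the mitochondrial genome.

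On chromosome M of GRCm38, 28 of the 37 genes lie on the plus strand and 9 on the minus strand. The only protein gene on the minus strand is mt-Nd6. Neighbouring genes share bases in 9 pairs, among them mt-Atp8 and mt-Atp6 with 43 bases, mt-Nd4l and mt-Nd4 with 7, and mt-Nd5 and mt-Nd6 with 14 on opposite strands. The strand setting of the counting is not given in the sources used here, so reads of minus-strand genes and of plus-strand RNA across them cannot be told apart. Short mature transfer RNAs and longer precursors that contain them cannot be told apart in these counts either. Sequences are given below for the 4 transfer RNA genes on which the results turn, from the GENCODE M21 transcripts of GRCm38, 5′ to 3′ on the strand of the gene, with the anticodon in capitals. The leucine tRNA gene mt-Tl1 lies at chrM:2676-2750 (plus strand), directly between mt-Rnr2 and mt-Nd1. The isoleucine tRNA gene mt-Ti lies at chrM:3706-3774 (plus strand), and the methionine tRNA gene mt-Tm, which serves both initiation and elongation, at chrM:3845-3913 (plus strand). The proline tRNA gene mt-Tp lies at chrM:15356-15422 (minus strand).
mt-Tl1: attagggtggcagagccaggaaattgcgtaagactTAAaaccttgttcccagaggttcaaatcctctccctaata
mt-Ti: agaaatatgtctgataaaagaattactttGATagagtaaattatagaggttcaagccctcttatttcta
mt-Tm: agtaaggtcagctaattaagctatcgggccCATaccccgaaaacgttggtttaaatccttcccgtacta
mt-Tp: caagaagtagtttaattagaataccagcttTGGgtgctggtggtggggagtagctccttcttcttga

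A stretch of nuclear DNA holds copies of 7 of the protein genes, and these copies shared their reads. On chromosome 1 of GRCm38, from 24611535 to 24616197 on the minus strand, GENCODE M21 lists 7 pseudogenes in a row, copied from mt-Co1, mt-Co2, mt-Atp6, mt-Co3, mt-Nd3, mt-Nd4l and mt-Nd4. Over the aligned bases 6 of the copies were identical to the mitochondrial gene. The copy of mt-Co1, named Gm29216, aligned over 483 bases of the gene with 1 mismatch, A1066T, where positions count from 1 at the 5′ end of mt-Co1 and the base of mt-Co1 comes first. The alignment began at base 1063, and the bases of the copy before it were not aligned. Whether A1066T is a substitution or marks the edge of the copied stretch cannot be told from this alignment. The start of this copy is shown under a part of mt-Co1 (chrM:6363-6423, plus strand; copy at chr1:24616155-24616197, minus strand). Capitals mark the bases that both share after the mismatch, up to the end of the stretch shown.
mt-Co1: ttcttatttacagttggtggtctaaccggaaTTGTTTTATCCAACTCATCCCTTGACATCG
Gm29216: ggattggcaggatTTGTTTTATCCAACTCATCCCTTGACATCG
The copies of mt-Co2, mt-Co3, mt-Nd3 and mt-Nd4l held as many counts as the mitochondrial genes. Over 48 pairs of 12 libraries and 4 genes, the count of the copy divided by that of the gene ran from 0.961 to 1.07 with a median of 1.005. For mt-Atp6 and its copy Gm10925 the ratio was 1.08 to 1.15. The partial copies of mt-Co1 and mt-Nd4 stood at ratios of 0.128 to 0.172 and 0.221 to 0.309. All 7 copies together held 0.541 ± 0.134% of all counts in rat tail collagen, 0.426 ± 0.0371% in bovine collagen, 0.432 ± 0.0507% in media and 0.517 ± 0.0986% in naive cells (SD, n = 3 each). Levels of these 7 genes are therefore uncertain, and those of mt-Co2, mt-Co3, mt-Nd3 and mt-Nd4l cover about the same number of counts as the copies do. Adding the counts of the copies to those of the genes changed no count of called mitochondrial genes by more than 1.5 times in any comparison.

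**Figure D1:**
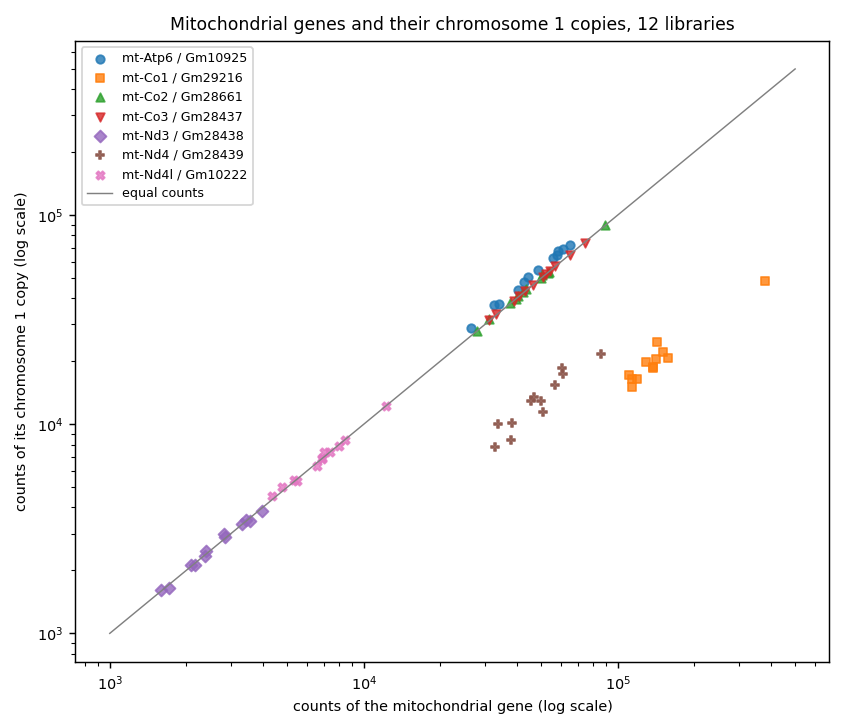
Counts of each mitochondrial gene (x axis, log scale) against counts of its chromosome 1 copy (y axis, log scale), 1 point per library for 7 genes and 12 libraries. Points of mt-Co2, mt-Co3, mt-Nd3 and mt-Nd4l lie along the line of equal counts (ratio 0.961 to 1.07), and those of mt-Co1 and mt-Nd4, whose copies are partial, lie below it.

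Libraries held 28483064 to 53138362 counts. Genes of cytosolic ribosomal RNA, which the kit is meant to remove, made up 10.96%, 5.03% and 13.2% of the total of rat tail collagen 1, 2 and 3. In bovine collagen 1, 2 and 3 they made up 6.41%, 11.9% and 5.50%. Their share was 4.57 ± 0.137% in media and 5.06 ± 0.958% in naive cells. The nuclear RNA Malat1 made up 1.34 ± 0.197% in rat tail collagen, 0.226 ± 0.0439% in bovine collagen, 0.256 ± 0.0667% in media and 0.791 ± 0.0986% in naive cells. The 5 CD8 T cell markers were present in all 12 libraries, and Cd8a averaged 585 CPM in rat tail collagen, 668 in bovine collagen, 673 in media and 1012 in naive cells. Of these 5 markers, 2 were called lower in rat tail collagen than in media, Trac (244 CPM in rat tail collagen, against 473 in media) and Cd3d (178 CPM in rat tail collagen, against 263 in media), and 5 were called lower in rat tail collagen than in naive cells. Among all genes tested, 28.7% were called lower in rat tail collagen than in media, and 35.4% lower than in naive cells. CPM are counts scaled to library depth, with TMM factors over the 12 libraries. The 5 myeloid markers summed to 16.7 to 23.8 CPM in rat tail collagen, 9.57 to 10.2 in bovine collagen, 8.95 to 9.90 in media and 34.1 to 124 in naive cells. Of these, Lyz2 averaged at most 0.0736 CPM in any day 4 group, against 35.1 in naive cells. The 4 B cell markers summed to at most 4.51 CPM and the 3 red cell markers to at most 7.79 CPM in any library. The 2 natural killer cell markers summed to 8.05 to 10.1 CPM in rat tail collagen, 0.153 to 0.976 in bovine collagen, 0.192 to 0.554 in media and 10.7 to 22.8 in naive cells, and Klrb1c made up nearly all of the rat tail sum. The 3 stromal markers summed to 3.93 to 5.23 CPM in rat tail collagen, and the 2 CD4 T cell markers to 51.4 to 61.9 CPM, against 0.305 to 0.415 and 20.9 to 37.2 CPM in media. The part of these markers, of Malat1 and of the rRNA share in the results below was not tested. In bulk RNA, fewer cells of a type and less RNA per cell cannot be told apart, and the same holds for the number of mitochondria and the RNA in each.

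The 37 genes together accounted for 2.20%, 2.39% and 1.70% of the total of rat tail collagen 1, 2 and 3. They accounted for 1.41%, 1.64% and 1.59% in bovine collagen, 1.34%, 1.44% and 1.63% in media, and 1.95%, 1.72% and 1.44% in naive cells, in the same order of libraries. All rat tail libraries were above all media libraries, while the naive libraries overlapped with every other group. The 13 protein genes made up most of this, with 1.87 ± 0.402% in rat tail collagen, 1.39 ± 0.125% in bovine collagen, 1.32 ± 0.140% in media and 1.58 ± 0.209% in naive cells (SD, n = 3 each). The 2 rRNA genes had a share of 0.221 ± 0.0452% in rat tail collagen, 0.157 ± 0.0101% in bovine collagen, 0.151 ± 0.0100% in media and 0.120 ± 0.0470% in naive cells. Transfer RNA genes had 0.00403 ± 0.000660% in rat tail collagen, 0.00200 ± 0.000199% in bovine collagen, 0.00200 ± 0.000181% in media and 0.000922 ± 0.000201% in naive cells. The 3 classes thus did not keep the same order of groups: the mean of media stood below that of naive cells for the protein genes, and above it for the rRNA and tRNA genes.

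Per length, mt-Co1 had the highest level of the protein genes in rat tail collagen, at 3320 ± 699 CPM per kb, and in media at 1809 ± 82.1 CPM per kb, where it did not differ beyond the spread from mt-Cytb with 1740 ± 152. In rat tail collagen mt-Cytb followed with 2428 ± 447 CPM per kb, then mt-Nd1 with 2073 ± 381 and mt-Co2 with 2056 ± 358, and the spreads of these 3 overlapped. The lowest was mt-Nd3 with 188 ± 55.4 CPM per kb in rat tail collagen and 174 ± 16.5 in media. With the copies added, mt-Co2 stood at 4126 ± 719 CPM per kb in rat tail collagen and mt-Atp6 at 3408 ± 1112, so the order of levels between genes depends on how shared reads are assigned. The minus-strand gene mt-Nd6 had 322 ± 45.7 CPM per kb in rat tail collagen and 223 ± 56.2 in media, beside mt-Nd5, the plus-strand gene that overlaps it, with 842 ± 76.4 in rat tail collagen and 770 ± 126 in media. The tRNA gene with the highest level was mt-Tl1, with 324 ± 24.9 CPM per kb in rat tail collagen, 158 ± 22.8 in bovine collagen, 152 ± 11.4 in media and 42.1 ± 12.8 in naive cells. It held 57.6% of all 10943 tRNA counts.

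Rat tail collagen against media asks what a day in this gel goes with in activated cells. Of the 13 protein genes 6 rose, 0 fell and 7 were not called, both rRNA genes rose, and of the 6 tRNA genes that passed the filter on low counts in every fit 4 rose and 0 fell. A call is an adjusted p under 0.05 in edgeR's quasi-likelihood test, with the Benjamini-Hochberg adjustment across the 19392 genes of the fit. Among all genes tested 29.7% were called higher and 28.7% lower, and 6 of 13 protein genes are to be read against that share. The median log2 fold change was 0.37 over the protein genes, against -0.01 over all genes tested.

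Among the complex IV subunits, mt-Co1, which encodes the catalytic subunit, changed most. It stood at 4719, 6353 and 4315 CPM in rat tail collagen 1, 2 and 3, against 2705, 2739 and 2939.9 CPM in media. The lowest rat tail library was above the highest media library. The log2 fold change was 0.87 (SE 0.16, adjusted p = 7.26e-04 by edgeR). The chromosome 1 copy Gm29216, which shares the 3′ part of mt-Co1, rose by a log2 of 0.82. mt-Co2, the subunit that takes electrons from cytochrome c, had 1598, 1491 and 1131 CPM in rat tail collagen and 811, 868 and 1074 CPM in media. These groups did not overlap either, although rat tail 3 and media 3 lay close together, and the log2 fold change was 0.61 (SE 0.15, adjusted p = 0.00475 by edgeR). The structural subunit gene mt-Co3 was not called, with 1563, 1243 and 891 CPM in rat tail collagen and 1245, 1074 and 1216 CPM in media. Rat tail 1 was the highest and rat tail 3 the lowest of these 6 libraries. Its log2 fold change was 0.06, with an interval of -0.27 to 0.39 at 95%.

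mt-Cytb, the only complex III subunit of this genome, had 3213, 2907 and 2215 CPM in rat tail collagen, against 1885, 1895 and 2191 CPM in media. The groups were separated by the small gap between rat tail 3 and media 3. The log2 fold change was 0.47 (SE 0.14, adjusted p = 0.0125 by edgeR), and without rat tail 1 it was 0.36 and no longer called (adjusted p = 0.0584). The complex V genes were not called. mt-Atp6, a subunit of the proton channel, had 1452, 1089.7 and 754 CPM in rat tail collagen and 1061, 1023 and 1247 CPM in media. mt-Atp8, whose small protein sits beside it, had 159, 97.0 and 62.1 CPM in rat tail collagen and 116, 118 and 165 CPM in media. For mt-Atp6 the rat tail libraries lay on either side of the media libraries, and for mt-Atp8 media 3 was the highest and rat tail 3 the lowest of the 6 libraries. The log2 fold changes were -0.02 for mt-Atp6 (interval -0.42 to 0.37) and -0.34 for mt-Atp8 (interval -1.004 to 0.33). Without rat tail 1, mt-Atp8 was called lower, at -0.74 (adjusted p = 0.0319 by edgeR).

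Complex I has 7 subunits in this genome, and 3 of them rose. mt-Nd2, a subunit of the membrane arm that pumps protons, had 908, 848 and 692 CPM in rat tail collagen and 540.4, 601 and 688 CPM in media, a log2 fold change of 0.41 (SE 0.13, adjusted p = 0.0176 by edgeR). mt-Nd6 had 186, 174 and 140.4 CPM in rat tail collagen, against 84.3, 121 and 142 CPM in media, with a log2 fold change of 0.52 (SE 0.19, adjusted p = 0.0341). mt-Nd1, which lies where ubiquinone is bound, had 2347, 1987 and 1617 CPM in rat tail collagen and 1554, 1433 and 1580.1 CPM in media, with a log2 fold change of 0.37 (SE 0.14, adjusted p = 0.0357). For mt-Nd1 and mt-Nd2 the lowest rat tail library lay just above the highest media library, and for mt-Nd6 the groups overlapped. Each of these 3 calls was lost without media 1, without media 2, without rat tail 1 and without rat tail 2, and that of mt-Nd1 also without media 3. The other 4, all of the membrane arm, were not called, with log2 fold changes of 0.10 for mt-Nd3, 0.12 for mt-Nd5, 0.34 for mt-Nd4 and 0.39 for mt-Nd4l. Without media 3, mt-Nd4 was called higher at 0.54 (adjusted p = 0.0401 by edgeR).

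**Figure D2:**
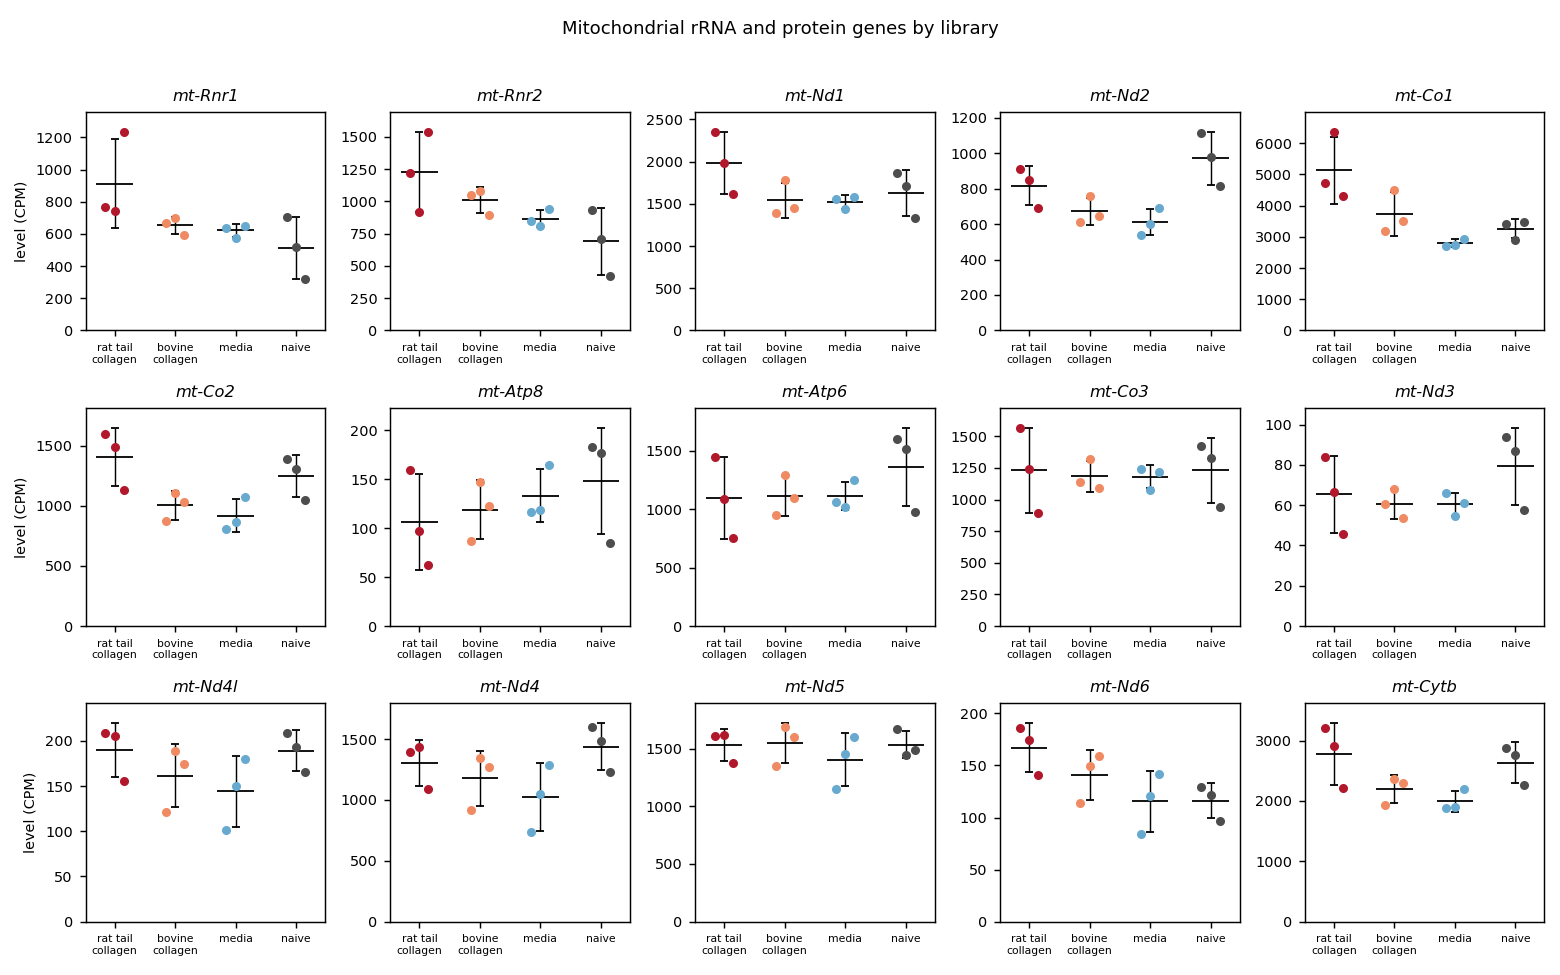
Level in CPM (y axis, from 0) of the 2 rRNA and 13 protein genes in each library, by group; points are libraries 1, 2 and 3 from left to right, the line is the mean and the bar the SD (n = 3). For mt-Co1 the 3 rat tail libraries (4315 to 6353 CPM) lie above the 3 media libraries (2705 to 2939.9 CPM), while for mt-Atp6 and mt-Co3 the rat tail libraries lie on either side of them.

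Both rRNA genes were called higher in rat tail collagen, with rat tail 3 the highest of these 6 libraries for each. mt-Rnr1, the small ribosomal RNA, had 765, 741 and 1234 CPM in rat tail collagen and 638, 577 and 651 CPM in media, with a log2 fold change of 0.54 (SE 0.17, adjusted p = 0.0149 by edgeR). mt-Rnr2, the large one, had 1221, 920.4 and 1536 CPM in rat tail collagen and 849, 812 and 937 CPM in media, with 0.49 (SE 0.16, adjusted p = 0.0183). The groups did not overlap for mt-Rnr1, and for mt-Rnr2 rat tail 2 lay below media 3. These levels are those left after rRNA depletion. Rat tail 3 also had the highest share of cytosolic rRNA, 13.2%, and rat tail 2, with 5.03%, the lowest levels of both genes in its group. Without the 3 libraries of highest cytosolic rRNA share (rat tail 1 and 3 and bovine 2), neither was called, with 0.25 for mt-Rnr1 (adjusted p = 0.197) and 0.08 for mt-Rnr2 (adjusted p = 0.708). That leaves rat tail collagen with 1 library, which is assumed to vary like the other groups. Without rat tail 3 alone mt-Rnr2 was at 0.30 (adjusted p = 0.0837), without media 1 at an adjusted p of 0.0593 and without media 2 at 0.066, and mt-Rnr1 without media 2 at 0.0567.

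Among transfer RNA genes, levels were low, and the called log2 fold changes of mt-Tl1, mt-Tm, mt-Tp and mt-Ti, given below, exceeded those of every protein and rRNA gene of the genome. mt-Tl1 had 25.4, 25.3 and 22.1 CPM in rat tail collagen, against 11.1, 10.7 and 12.4 CPM in media. The rat tail libraries lay close to each other and far above the media libraries, at 2.12-fold (log2 1.08, SE 0.12, adjusted p = 1.07e-05 by edgeR). mt-Tm had 3.44, 3.98 and 3.28 CPM in rat tail collagen and 1.68, 1.73 and 1.71 CPM in media (log2 1.06, SE 0.15). mt-Tp had 2.57, 2.04 and 1.37 CPM in rat tail collagen and 0.726, 0.946 and 1.07 CPM in media (log2 1.12, SE 0.27). mt-Ti had 0.897, 0.787 and 0.571 CPM in rat tail collagen and 0.344, 0.369 and 0.214 CPM in media (log2 1.27, SE 0.30). In none of these 4 did the groups overlap, and mt-Tp and mt-Ti were spread more widely within rat tail collagen than mt-Tl1 and mt-Tm. The threonine tRNA gene mt-Tt, the plus-strand neighbour of mt-Tp, was not called, with 2.24, 1.72 and 1.46 CPM in rat tail collagen, 1.30, 1.66 and 1.73 CPM in media and a log2 fold change of 0.20. The tryptophan tRNA gene mt-Tw was not called either, at 0.51 (adjusted p = 0.0948).

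The aspartate and glutamate tRNA genes mt-Td and mt-Te, with at most 27 and 16 counts in a library, were called higher at 1.27 and 1.21. They passed the filter in the fits that hold rat tail collagen and not in media against naive, and are left out of the counts of tRNA genes here. Neither was called by DESeq2 (adjusted p = 0.0593 for mt-Td and 0.0826 for mt-Te). The call of mt-Td was lost without media 2, media 3, rat tail 1 or rat tail 2, and that of mt-Te without media 1, media 2 or any 1 of the rat tail libraries. The other 14 tRNA genes, 15 counts or fewer in every library, were not tested. Among these the second leucine tRNA gene mt-Tl2 was listed at 0 in all media and all naive libraries, with 12 counts over the other 6 libraries, and the phenylalanine tRNA gene mt-Tf, the first gene after the control region, had 13 counts in all 12.

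**Figure D3:**
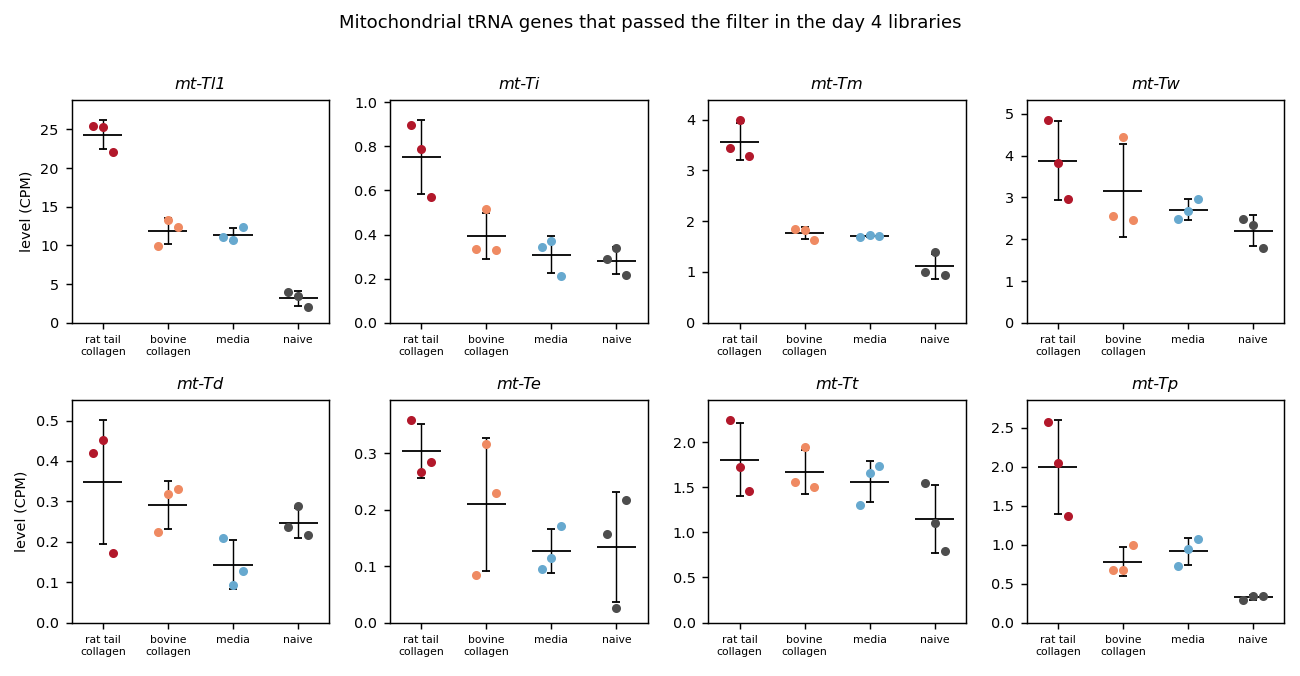
Level in CPM (y axis, from 0) of the 8 tRNA genes past the filter, by library and group; points are libraries 1, 2 and 3, the line is the mean and the bar the SD (n = 3). For mt-Tl1 rat tail collagen (22.1 to 25.4 CPM) lies above media (10.7 to 12.4 CPM) and naive cells (2.10 to 3.96 CPM) lie below it, while for mt-Tt the groups overlap.

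In rat tail collagen against media 14 genes were called, mt-Td and mt-Te included. Of these, 6 kept their call in every alternative run that tested them: mt-Co1, mt-Co2, mt-Tl1, mt-Tm, mt-Tp and mt-Ti. The alternatives included leaving out each library in turn. With the filter of 1 CPM in 3 libraries mt-Ti was not tested, so its call was kept in 21 runs, against 22 for mt-Co1. The log2 fold change ran from 0.68 to 1.18 for mt-Co1, from 0.51 to 0.75 for mt-Co2 and from 1.03 to 1.15 for mt-Tl1 over these alternatives. The count of genes called higher was 7 without the 3 libraries of highest cytosolic rRNA share. Leaving out media 1 gave 9 such genes, leaving out media 2 gave 7, leaving out rat tail 1 gave 8 and leaving out rat tail 2 gave 9.

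The protein genes did not move together, and this shows in their shares of all counts of the 13 genes, which do not depend on library size. A larger share of mt-Co1 in itself makes the other shares smaller. The shares also depend on how reads were split with the chromosome 1 copies. mt-Co1 took 24.3%, 32.5% and 29.8% in rat tail collagen, 25.0%, 27.0% and 24.2% in bovine collagen, 22.4%, 21.8% and 20.4% in media, and 19.3%, 18.1% and 24.8% in naive cells. Each library of both gels was above each media library, and naive 3 stood apart from the other naive libraries. mt-Atp6 took 7.47%, 5.58% and 5.21% in rat tail collagen, 7.48%, 7.74% and 7.53% in bovine collagen, 8.80%, 8.13% and 8.67% in media, and 9.11%, 9.44% and 7.02% in naive cells. Here both gels lay below media, while the mean level of mt-Atp6 was 1099 CPM in rat tail collagen, 1113 in bovine collagen and 1110 in media. mt-Nd5 took 8.28%, 8.32% and 9.50% in rat tail collagen and 9.56%, 11.6% and 11.1% in media, again without overlap. mt-Cytb kept 15.6 ± 0.850% in rat tail collagen, 15.1 ± 0.871% in bovine collagen, 15.3 ± 0.298% in media and 16.6 ± 0.576% in naive cells. By complex, summed levels of complex IV genes were 7768 ± 1379 CPM in rat tail collagen and 4891 ± 297 CPM in media, while those of complex V genes were 1205 ± 398 CPM in rat tail collagen and 1243 ± 147 CPM in media.

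**Figure D4:**
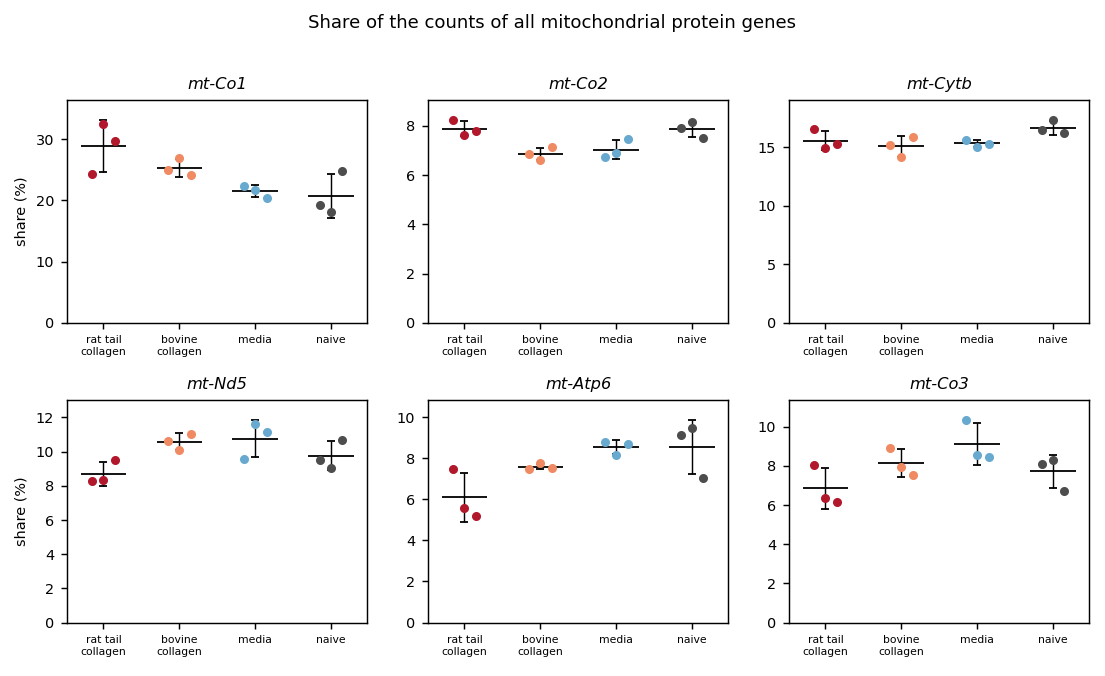
Share of all counts of the 13 protein genes (y axis, %, from 0) taken by 6 of them, by library and group; points are libraries 1, 2 and 3, the line is the mean and the bar the SD (n = 3). The share of mt-Co1 is above that of every media library in each library of both gels, and the share of mt-Atp6 is below it.

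Bovine collagen against media asks the same of the other gel and shares the media libraries with the comparison above. No mitochondrial gene was called, 0 of 23 by edgeR and 0 by DESeq2. At an unadjusted p under 0.05 there was 1, mt-Co1, among 810 such genes of the 19392 tested. The comparison called few genes at all, with 0.0206% of genes higher (4 genes) and 0% lower. With the replicate number as a block, 7 genes were called and again 0 mitochondrial ones. A pairing of these libraries by number rests on correlations in the data and not on the labels. mt-Co1 had 3176, 4504 and 3506 CPM in bovine collagen, against 2705, 2739 and 2939.9 CPM in media, so the groups did not overlap. Its log2 fold change was 0.42, with an interval of 0.10 to 0.73 and an unadjusted p of 0.0249, and it failed the adjustment (adjusted p = 1 by edgeR). For mt-Co2 it was 0.13 (interval -0.17 to 0.42), for mt-Cytb 0.14 (-0.13 to 0.41) and for mt-Rnr2 0.22 (-0.09 to 0.52). mt-Tl1, with 9.96, 13.3 and 12.3 CPM in bovine collagen and 11.1, 10.7 and 12.4 CPM in media, was at 0.05 (-0.18 to 0.28), so that its interval ends far below the 1.08 of rat tail collagen.

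Rat tail against bovine collagen tests the difference between the gels, at the same 2 mg/mL. There 3 of 13 protein genes, 1 of 2 rRNA genes and 4 of the 6 tRNA genes that passed the filter in every fit were called higher and 0 lower, with 28.4% of all genes tested called higher and 26.4% lower. The proline, leucine and methionine tRNA genes differed most. mt-Tp had a log2 fold change of 1.33 (SE 0.28, adjusted p = 0.00193 by edgeR), with 2.57, 2.04 and 1.37 CPM in rat tail collagen and 0.669, 0.674 and 0.993 CPM in bovine collagen. mt-Tl1 stood at 1.03 (SE 0.12, adjusted p = 2.02e-05) and mt-Tm at 1.02 (SE 0.16, adjusted p = 1.97e-04). These 3 calls were kept in every alternative run. mt-Ti (0.96), mt-Co2 (0.48), mt-Rnr1 (0.47), mt-Co1 (0.45) and mt-Nd1 (0.36) were called too but lost their call without at least 1 library. The count of genes called higher was 3 without bovine 1, 4 without bovine 3, 5 without rat tail 1 and 5 without rat tail 2. It was also 5 without the 3 libraries of highest cytosolic rRNA share. For mt-Co1 rat tail 3 (4315 CPM) lay below bovine 2 (4504 CPM). mt-Cytb at 0.33 (adjusted p = 0.0638), mt-Nd2 at 0.27 (adjusted p = 0.096) and mt-Rnr2 at 0.28 (adjusted p = 0.16) were not called. Without rat tail 3, mt-Cytb and mt-Nd2 were called higher, and without rat tail 2 mt-Rnr2 was.

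Media against naive asks what activation and 4 days of culture go with, and is fitted on the 6 libraries of these groups. Of 13 protein genes 0 rose and 3 fell, of 2 rRNA genes 0 were called, and of 6 tRNA genes 3 rose. Among the 18610 genes tested 31.6% were called higher and 29.2% lower. mt-Nd2 fell most, with 540.4, 601 and 688 CPM in media, against 1113, 979 and 817 CPM in naive cells. The groups were apart, at a log2 fold change of -0.61 (SE 0.14, adjusted p = 0.00388 by edgeR). mt-Cytb had 1885, 1895 and 2191 CPM in media and 2885, 2767 and 2256 CPM in naive cells (log2 -0.34, adjusted p = 0.0355). mt-Co2 had 811, 868 and 1074 CPM in media and 1389.8, 1303 and 1049 CPM in naive cells (log2 -0.38, adjusted p = 0.0415). Media 3 and naive 3 lay next to each other in both, and for mt-Co2 media 3 was the higher of these. Both calls were lost without naive 1, naive 2, media 1 or media 2. mt-Nd4 at -0.43 (adjusted p = 0.0824) and mt-Co1 at -0.16 were not called. The number of genes called lower was 1 without naive 1, without naive 2, without media 1 or without media 2, and 5 without naive 3 or without media 3, while the fall of mt-Nd2 kept its call in every alternative run.

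mt-Tl1 rose in media to 11.1, 10.7 and 12.4 CPM, against 3.96, 3.41 and 2.10 CPM in naive cells. At 3.77-fold (log2 1.91, SE 0.21, adjusted p = 5.92e-05 by edgeR) this was the largest change of a mitochondrial gene between these groups, and the call was kept in every alternative run. That of mt-Tp was kept in the 16 runs that tested it. With the filter of 1 CPM in 3 libraries mt-Tp was not tested. mt-Tp had 0.726, 0.946 and 1.07 CPM in media and 0.289, 0.341 and 0.337 CPM in naive cells (log2 1.55, adjusted p = 0.00128). mt-Tm was at 0.68 (adjusted p = 0.026), a call lost without naive 1, naive 3, media 2 or media 3. mt-Tt (0.51), mt-Tw (0.36) and mt-Ti (0.20) were not called. The rRNA genes mt-Rnr1 (0.34) and mt-Rnr2 (0.39) were not called, and naive libraries were widely spread, with 705, 516 and 317 CPM of mt-Rnr1, against 638, 577 and 651 CPM in media. Without naive 1, 5 mitochondrial genes were called higher. Naive libraries also held more myeloid marker RNA than the others, as given above, and its part in these differences was not tested.

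Rat tail collagen against naive compares the gel with cells before activation, and shares libraries with the comparisons above. Of 13 protein genes 2 rose and 0 fell, of 2 rRNA genes 0 were called, and of the same 6 tRNA genes 5 rose. Among the 19449 genes tested 36.5% were called higher and 35.4% lower. mt-Tl1 had 25.4, 25.3 and 22.1 CPM in rat tail collagen, against 3.96, 3.41 and 2.10 CPM in naive cells, which is 7.75-fold (log2 2.95, SE 0.20). mt-Tp was at 2.62 (SE 0.30), mt-Tm at 1.70 (SE 0.20), mt-Ti at 1.42 (SE 0.32) and mt-Tw at 0.82 (SE 0.21). mt-Co1 rose to 4719, 6353 and 4315 CPM in rat tail collagen, against 3396, 2903 and 3458 CPM in naive cells (log2 0.66, SE 0.15, adjusted p = 0.0024 by edgeR). mt-Nd6 was higher too, at 0.53 (SE 0.13, adjusted p = 0.00617), with 186, 174 and 140.4 CPM in rat tail collagen and 129, 122 and 96.9 CPM in naive cells. All 7 calls were kept in every alternative run that tested them, and mt-Ti was not tested with the filter of 1 CPM in 3 libraries. For each of the 7 the groups did not overlap, and the share of all genes without overlap is not given here. mt-Nd2 at -0.24, mt-Atp6 at -0.31 and mt-Atp8 at -0.48 were not called, nor were mt-Rnr1 at 0.84 (adjusted p = 0.0808) and mt-Rnr2 at 0.84 (adjusted p = 0.0659). Without naive 1 both were called higher, at 1.13 for mt-Rnr1 (adjusted p = 0.0394) and 1.11 for mt-Rnr2 (adjusted p = 0.0303), and mt-Rnr2 was also called without rat tail 2. DESeq2 called both, with adjusted p of 0.0478 for mt-Rnr1 and 0.0317 for mt-Rnr2, as did the fit of all 12 libraries and the fit without robust estimation. Without naive 3, 1 mitochondrial gene was called lower. With the replicate number as a block 4 were, among them mt-Nd2 (adjusted p = 0.0119 by edgeR), mt-Atp6 (0.007) and mt-Atp8 (0.0108). Whether the numbers pair these libraries is not settled.

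**Figure D5:**
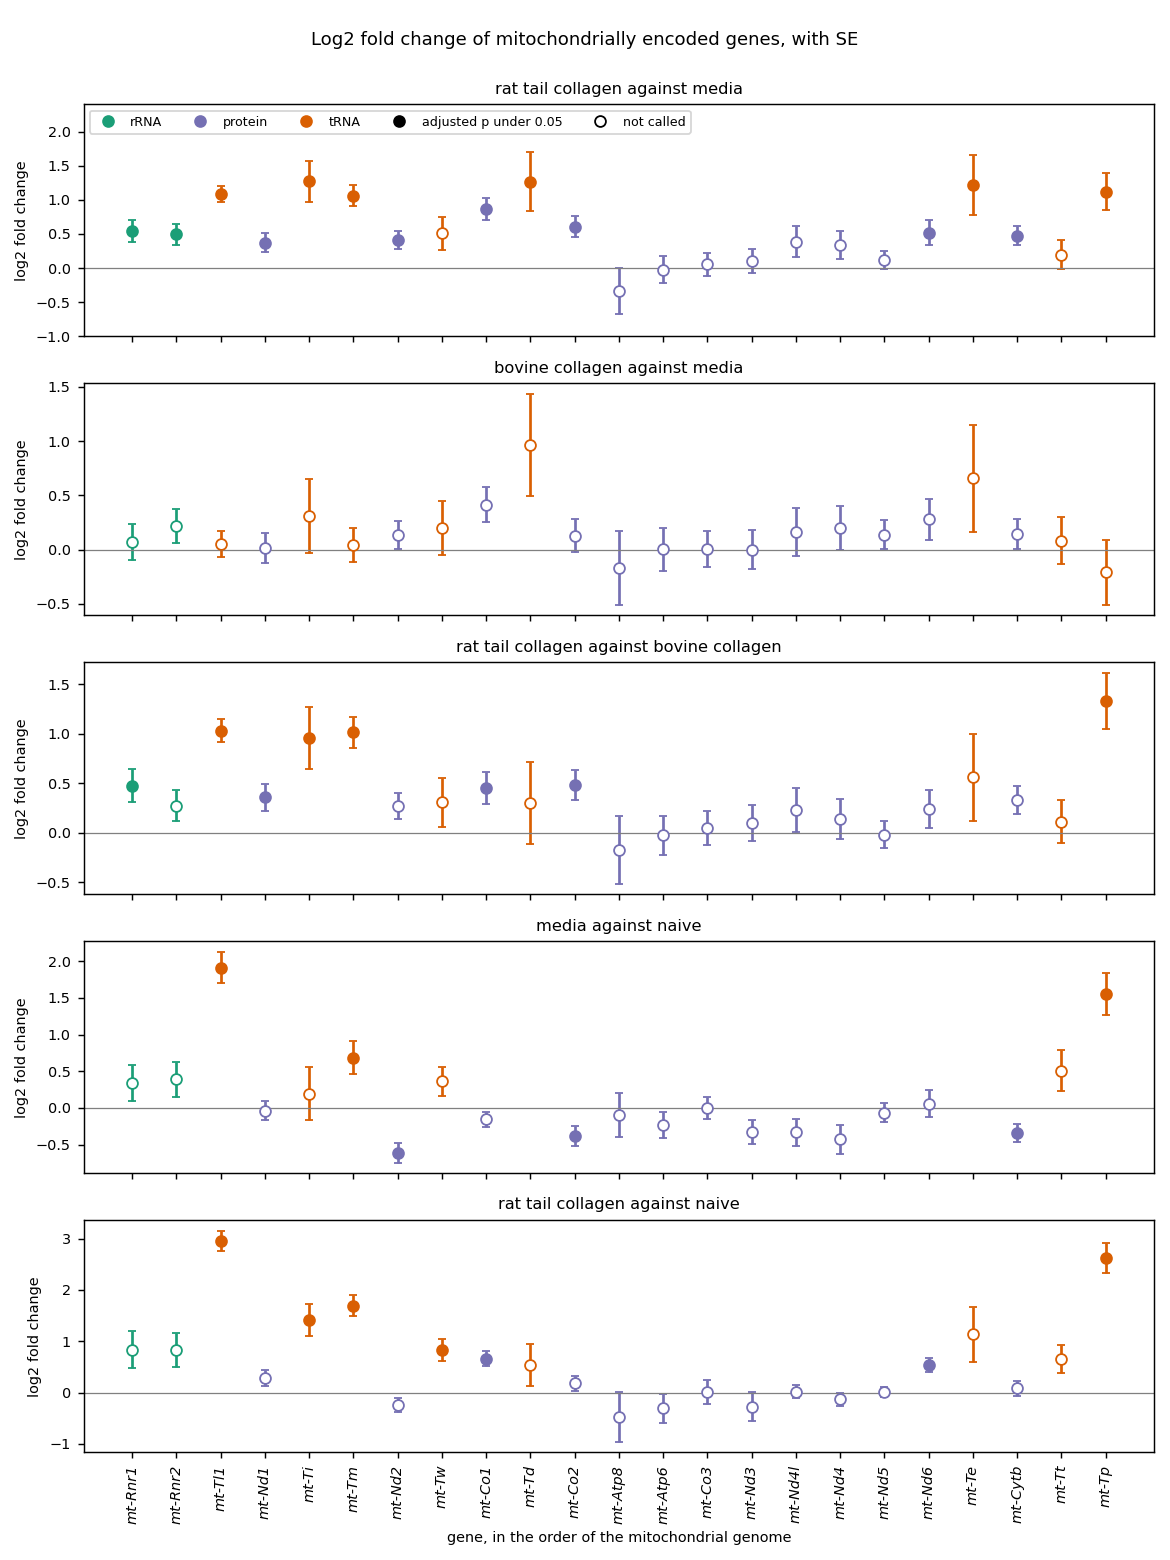
Log2 fold change (y axis, linear; error bars are the SE) of each mitochondrial gene past the filter, in the order of the genome, in the 5 comparisons; filled points have an adjusted p under 0.05 by edgeR. In rat tail collagen against media mt-Co1 (0.87) and mt-Tl1 (1.08) are called and the tested genes from mt-Atp8 to mt-Nd5 are not. Of these, mt-Nd4l and mt-Nd4 have values close to those of the called mt-Nd1 and mt-Nd2. In bovine collagen against media no gene is called, and in media against naive mt-Nd2 is low (-0.61) and mt-Tl1 high (1.91).

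Nuclear genes that act on the mitochondrial genome were read off the same fits, from lists written from general knowledge. In rat tail collagen against media, 1 of 10 genes of mitochondrial transcription rose and 2 fell. Tfam, which packages mitochondrial DNA and starts its transcription, fell to 36.6 ± 0.113 CPM in rat tail collagen, against 58.9 ± 2.13 in media (SD, n = 3 each; log2 -0.70, adjusted p = 1.75e-06 by edgeR). Mterf2, of a family of factors that bind mitochondrial DNA, fell by 0.55 on the log2 scale. Polrmt, the RNA polymerase, rose to 34.9 ± 5.55 CPM in rat tail collagen, against 24.5 ± 2.07 in media (log2 0.50, adjusted p = 0.00204). Among 16 genes of RNA processing 4 rose and 8 fell. Trmt10c, a subunit of the enzyme that cuts at the 5′ end of transfer RNAs, fell by 0.53 on the log2 scale, and Grsf1, which binds mitochondrial RNA in granules, fell by 0.54. Elac2, which cuts at the 3′ end, rose by 0.27 and Fastkd1 by 0.65. Of 6 genes of RNA stability 0 rose and 2 fell, Pde12 by 0.42 and Pnpt1 by 0.26. Of 20 genes of rRNA and tRNA modification 4 rose, with Mettl15 at 1.21 and Trmu at 0.67, and 4 fell, with Yrdc at -0.41 and Alkbh1 at -0.33. Of 14 genes of replication and packaging 4 rose, with Polg2, the accessory subunit of the DNA polymerase, at 0.86, and 4 fell, with the ribonucleotide reductase subunit Rrm2b at -0.80. All 5 lists stood below the 29.7% of genes called higher. RNA processing, with 8 of 16, and RNA stability, with 2 of 6, stood above the 28.7% called lower, and the other 3 did not.

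The nuclear genes of the partners of mitochondrial proteins and rRNAs were called in both directions in rat tail collagen against media, beside 29.7% of all genes called higher and 28.7% lower. Among 77 tested genes of mitochondrial ribosomal proteins, found by symbol pattern like the subunits of the complexes, 7 rose and 25 fell. Mrps6 rose to 85.7 ± 11.2 CPM in rat tail collagen, against 11.9 ± 2.21 in media (log2 2.84, adjusted p = 7.33e-08 by edgeR), and Mrpl9 fell by 1.02 on the log2 scale. Of 39 nuclear genes of complex I 3 rose and 12 fell, with Ndufb11 at -0.87 and Ndufv3 at 0.33. Of 9 of complex III 0 rose and 2 fell, with Uqcrfs1 at -0.56. Of 13 of complex IV 3 rose, with Cox6b2 at 1.78 and Cox6a1 at 0.61, and 2 fell, with Cox7a2l at -0.87. Of 17 of complex V 2 rose and 6 fell, with Atp5g2 at -0.90 and Atp5g1 at 0.57. Each of these 5 lists had a smaller share of genes called higher than all genes tested. The share called lower was slightly above that of all genes for ribosomal proteins and complexes I and V, and below it for complexes III and IV. The medians of these 5 lists lay between -0.17 and -0.01, beside 0.37 for the 13 mitochondrial protein genes. Of 12 translation factors 3 rose and 3 fell, with the elongation factor Tufm at 0.59 and Oxa1l, which inserts proteins into the inner membrane, at -0.67. Of 9 regulators of mitochondrial biogenesis 2 rose and 4 fell, Nrf1 at -0.49 among them, and of 10 genes of mitophagy 1 rose and 4 fell, with Pink1 at -0.68. In bovine collagen against media 0 genes of any of these lists were called.

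In media against naive nuclear subunit genes rose more often than they fell, in each of the 4 complexes. Of 39 genes of complex I 23 rose and 1 fell, of 9 of complex III 6 rose, of 13 of complex IV 12 rose, and of 17 of complex V 11 rose and 1 fell. Among 77 genes of mitochondrial ribosomal proteins 42 rose and 7 fell. These shares exceed the 31.6% of all genes called higher, while 0 of 13 mitochondrial protein genes rose. Of 10 genes of mitochondrial transcription 6 rose and 2 fell, with Mterf4 at 0.73 and Mterf3 at -0.48. Among them Polrmt fell to 24.5 ± 2.07 CPM in media, against 43.8 ± 3.63 in naive cells (SD, n = 3 each; log2 -0.77, adjusted p = 6.81e-05 by edgeR). Against 29.2% of all genes called lower, those of replication and packaging fell in 10 of 14 cases and rose in 3, with Polg2 at -1.78 and Tk2, a kinase that supplies nucleotides for mitochondrial DNA, at -1.01. Genes of rRNA and tRNA modification fell in 12 of 20 cases and rose in 3, with Mrm1, a methyltransferase of the large mitochondrial rRNA, at -1.67 and Trmu at -0.98. In rat tail collagen against naive, beside 36.5% of all genes called higher and 35.4% lower, 20 of 39 nuclear genes of complex I were called higher and 7 lower. There 4 of 9 of complex III were higher and 0 lower, 11 of 13 of complex IV were higher and 1 lower, and 9 of 17 of complex V were higher and 3 lower. Of 77 genes of mitochondrial ribosomal proteins 33 were higher and 18 lower, and of 13 mitochondrial protein genes 2 were higher.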

How the data were processed

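Per the labels, 150 ng of total RNA with a DNase step went into each library after depletion of ribosomal RNA. The submitters' processing notes name HISAT2, SAMtools, Picard, featureCounts, FastQC and MultiQC, with mm10 and GRCm38 as builds. Not given in the sources used here are their versions, the strand setting and how multimapping reads were treated. Raw read counts per gene symbol are what the authors deposited. Counts were tested with edgeR 4.0.16 (limma 3.58.1, R 4.3.3): filterByExpr by group, TMM factors, robust quasi-likelihood F test, Benjamini-Hochberg over all genes tested, and calls at an adjusted p under 0.05. The 9 day 4 libraries shared 1 fit, and each comparison with naive cells used its 6 libraries. Common biological coefficients of variation were 12.2%, 13.5% and 12.0%. Intervals are the estimate ± 1.96 SE. They use a normal quantile, so they are narrower than 95% intervals of the F test would be. The scripts were tested on simulated data.

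Every symbol that starts with mt- is a member and could be named. From each list up to 2 genes called higher and up to 2 called lower, by smallest adjusted p, were named, and the text gives those that bear on each comparison. The members and lists were chosen with earlier results of these data known. Annotation and sequences come from GENCODE M21, in which 53291 of the symbols were found. Results were recomputed with DESeq2 1.42.0, RLE factors, library totals, at least 1 count, 1 CPM in 3 libraries, all 12 libraries, only 6 libraries, a replicate block, removal of rRNA genes, scaling without the mt- genes, no robust estimation and leaving out each library. Adding the pseudogene copies and leaving out the 3 libraries of highest rRNA share were chosen after seeing the data. Bovine collagen and media libraries of equal number were correlated in their deviations from the group means over genes, at 0.646, 0.140 and 0.702 for numbers 1, 2 and 3. A pairing by number there rests on these values and not on the labels, and number 2 was weak. For rat tail collagen the correlations were 0.0776 to 0.108 against media and 0.0821 to 0.180 against naive, so a pairing there is not settled. Correlations were -0.0505 to 0.0637 in rat tail against bovine collagen and -0.138 to 0.181 in media against naive.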

Additional observations from a re-analysis of the deposited data

How the results depend on the processing

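Calls over all genes in bovine collagen against media, 4 in number, were 9 with library totals, 22 with DESeq2, 39 with at least 1 count, 2 with only the 6 libraries, 7 with the replicate block, 1 without the 3 libraries of highest rRNA share and 2 to 5 without single libraries (2 without media 2), with 0 mitochondrial genes each time. Leaving out the 3 libraries of highest rRNA share gave 6726 calls and 7 mitochondrial genes called higher in rat tail collagen against media, and 5485 and 5 in rat tail against bovine collagen. Without single libraries, mitochondrial genes called higher numbered 7 to 15 and called lower 0 to 1 in rat tail collagen against media, 3 to 9 higher in rat tail against bovine collagen, 2 to 5 higher and 1 to 5 lower in media against naive, and 0 to 1 lower in rat tail collagen against naive. With at least 1 count, 6 were lower in media against naive, and 11 higher and 1 lower in rat tail collagen against naive. With the replicate block, 1 was lower in media against naive, where mt-Co2 (adjusted p = 0.0975 by edgeR) and mt-Cytb (0.101) were no longer called. With it 4 were lower in rat tail collagen against naive, among them mt-Nd2 (adjusted p = 0.0119), mt-Atp6 (0.007) and mt-Atp8 (0.0108). The labels do not say whether the numbers pair samples, and outside bovine collagen against media the correlations do not settle it. Each of 6 libraries correlated best with its own number in both rat tail collagen comparisons with media and naive, as a hint from the data only. In rat tail against bovine collagen 3 of 6 did, and in media against naive 2 of 6. Correlations outside bovine collagen against media were at most 0.181.

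Some uncalled values, most of them near 0, changed sign, and none was called with the changed sign. In rat tail collagen against media, mt-Atp6 was 0.035 with library totals and 0.032 with 1 CPM in 3 libraries. Without single libraries it ran from -0.27 to 0.19, mt-Co3 from -0.15 to 0.25, mt-Nd3 from -0.11 to 0.31 and mt-Nd5 from -0.021 to 0.22. In bovine collagen against media mt-Tl1 was -0.039 both with library totals and without the high-rRNA libraries, and -0.038 to 0.17 without single libraries. In rat tail against bovine collagen mt-Rnr2, at 0.28 in the main fit, was -0.073 without the high-rRNA libraries. It was called higher at 0.41 with library totals and at 0.44 without rat tail 2. The causes were not tested. Summed levels of the protein genes moved by less than 1 SD under every alternative run. Counts under 30 in every library limit mt-Td and mt-Te. Low counts also limit mt-Ti, with 9 to 47 in a library, and mt-Tp, with 11 to 122. All comparisons are limited by 3 libraries a group.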
